A study of Homo sapiens with 11 samples.

Results

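The RNA response of Jurkat cells to a phorbol ester was described over all genes that carry a p-value in the authors' comparison of PMA with DMSO, 43328 of the 44416 genes listed. Jurkat clone E6-1 is an established human T cell leukaemia line. The cells received phorbol myristate acetate (PMA) at 100 µM, the dose as labelled, or its solvent DMSO, each for 30 min. There were 3 poly(A)-enriched libraries with PMA and 3 with DMSO among the 11 samples of the series. Another 3 libraries from cells given the insecticide dieldrin, labelled 100 µM for 30 min, entered the same mean level per gene and share the DMSO libraries. A single ribosomal RNA-depleted DMSO library, also of 30 min, was used only for its sites of divergent transcription. Nothing in the labels tells whether separate cultures gave the 3 libraries of a group. The p-values therefore measure no more than the spread among the libraries of the authors' fit, which may be technical. Whether the spread among the dieldrin libraries also entered them is not given in the sources used here. The line is a clonal tumour line, and the values are sums over all cells: fewer cells of a kind and less RNA per cell cannot be told apart.

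PMA imitates the lipid messenger diacylglycerol. It binds the C1 domains of protein kinase C isoforms and of RASGRP exchange factors, and in T cells it thereby reaches the RAS and ERK cascade and, through BCL10 and MALT1, the NF-kB pathway without engagement of the T cell receptor. The genes that answer first, the immediate-early genes, have promoters that pre-existing factors such as SRF, CREB and NF-kB can occupy, and many encode transcription factors (FOS, JUN, EGR) or proteins that switch the signal off again (phosphatases of MAP kinases, inhibitors of NF-kB, proteins that bind and destabilise mRNA). Calcium signalling, the other arm of T cell activation, is not a direct target of PMA.

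Promoter sequences of the most strongly raised genes are shown with the motifs of factors known to bind early gene promoters. The windows run from 250 bases before to 50 after the start of the gene on build GRCh38.p14 and come from RefSeq. CD69, second by shrunken change, is named only. Capitals mark matches on either strand to the CArG box, the site of SRF; to the NF-kB motif; to TGACG, the core of the site of CREB and ATF factors; and to TATAAA, the TATA box.
EGR1 (chr5:138465229-138465528, plus strand): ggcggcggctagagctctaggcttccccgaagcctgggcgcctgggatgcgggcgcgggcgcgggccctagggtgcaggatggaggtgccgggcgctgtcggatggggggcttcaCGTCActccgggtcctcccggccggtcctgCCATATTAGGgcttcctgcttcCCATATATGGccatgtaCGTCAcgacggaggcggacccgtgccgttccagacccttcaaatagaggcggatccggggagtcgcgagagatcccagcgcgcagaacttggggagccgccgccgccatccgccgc
NFKBIA (chr14:35404700-35404999, minus strand): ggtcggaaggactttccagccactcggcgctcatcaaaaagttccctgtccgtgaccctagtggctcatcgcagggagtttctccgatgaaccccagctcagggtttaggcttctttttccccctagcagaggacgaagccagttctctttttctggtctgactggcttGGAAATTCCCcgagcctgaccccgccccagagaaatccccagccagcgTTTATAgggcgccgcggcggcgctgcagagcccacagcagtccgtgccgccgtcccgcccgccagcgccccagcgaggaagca
IER2 (chr19:13150161-13150460, plus strand): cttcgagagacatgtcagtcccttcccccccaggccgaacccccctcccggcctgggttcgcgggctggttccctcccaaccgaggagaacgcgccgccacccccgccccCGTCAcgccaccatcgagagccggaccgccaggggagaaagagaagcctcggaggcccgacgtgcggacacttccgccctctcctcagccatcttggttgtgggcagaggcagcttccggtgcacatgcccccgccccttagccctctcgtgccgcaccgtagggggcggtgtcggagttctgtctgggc
JUNB (chr19:12791236-12791535, plus strand): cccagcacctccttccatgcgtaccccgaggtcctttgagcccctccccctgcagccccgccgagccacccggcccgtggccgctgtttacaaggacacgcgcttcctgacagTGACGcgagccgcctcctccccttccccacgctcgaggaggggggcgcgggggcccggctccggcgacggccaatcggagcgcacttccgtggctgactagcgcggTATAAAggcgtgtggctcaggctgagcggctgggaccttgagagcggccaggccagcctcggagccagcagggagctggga
The EGR1 window holds 2 CArG boxes, CCATATTAGG from -105 to -96 and CCATATATGG from -83 to -74, counted from the start of the gene, and TGACG on the opposite strand at -135 and -66. The NFKBIA window holds an NF-kB motif from -81 to -72 and TATAAA on the opposite strand from -33 to -28. In the IER2 window TGACG lies on the opposite strand at -140. In the JUNB window TGACG lies at -137 and TATAAA from -31 to -26. Of 27305 RefSeq promoter windows of this length, 1.29% hold a CArG box, 10.8% the NF-kB motif, 25.01% TGACG and 11.95% TATAAA. The AP-1 motif TGANTCA and the EGR motif GCGTGGGCG were searched too; they are in 7.76% and 0.784% of the windows and have no match in these 4. Each match describes letters only. Only 57 of the 93 genes called higher have a window in the table, so no share over the called genes is given.

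Levels are given as mean normalised counts of a group, worked out from the authors' deposited table, or as CPM, a gene's share on the usual scale of the summed means, where 1 CPM is a mean of 83.7 counts. Values per library were not used, so the spread within a group is carried only by the authors' standard errors, and the depth of the libraries is unknown. A gene is called when the adjusted p of the authors' deposited table is under 0.05 (Wald test with Benjamini-Hochberg adjustment over 17612 genes). Housekeeping and lineage genes served as a check of the material. GAPDH, a glycolytic enzyme, and ACTB, cytoskeletal actin, had unshrunken log2 changes of -0.01 and 0.01 in the authors' deposited table. All 13 T cell markers found reached 1 CPM, with summed means of 303257 with PMA and 305214 with DMSO. None of 12 myeloid or 9 erythroid and platelet markers reached 1 CPM, 2 of 10 B cell markers did (CD79A at 34.6 CPM was the higher), and 1 of 10 fibroblast and epithelial markers did (COL1A1).

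PMA raised a small group of genes strongly and lowered few. By the authors' deposited table the test called 109 of 17612 genes, 0.619%, of which 93 were higher with PMA, 0.528%, and 16 lower, 0.0908%. Among the 93 higher genes the median fold was 1.81, with 14 at 5-fold or more, 40 at 2-fold or more and 34 under 1.5-fold. Among the 16 lower genes the median fold was 0.587 and 4 had fallen 2-fold or more. The higher genes had a median level of 29.7 CPM and the lower genes of 2.18 CPM, so most of the falls were in weakly expressed genes. At an unadjusted p under 0.05 there were 396 higher genes, 2.25%, and 261 lower ones, 1.48%.

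**Figure D1:**
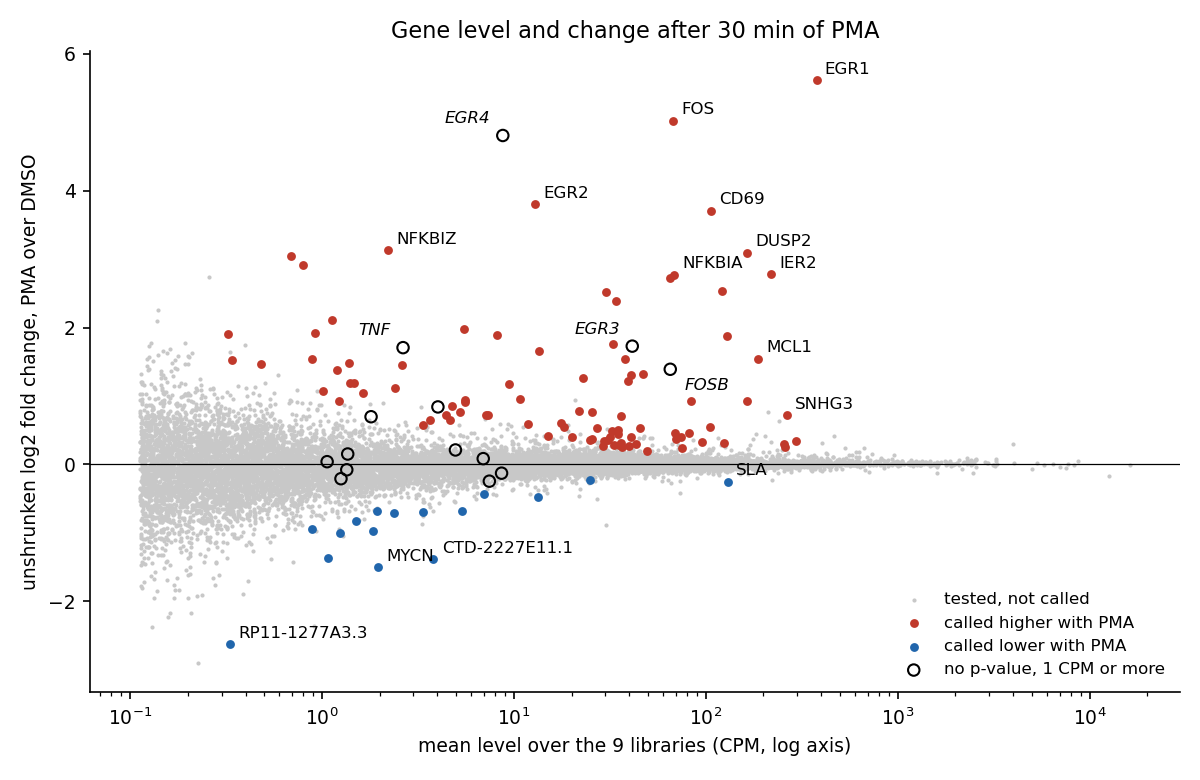
Unshrunken log2 fold change of PMA over DMSO (vertical) against mean level in CPM (horizontal, log axis) for the 17612 genes tested; red and blue points are the 93 higher and 16 lower called genes, and open circles are 14 genes of 1 CPM or more without a p-value. EGR1 stands at 5.62 and FOS at 5.02, while the lower genes lie between -2.62 and -0.23.

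Transcription factors of the immediate-early class held the largest changes. EGR1 (ENSG00000120738, chromosome 5, 137801179 to 137805004, on hg19), a zinc finger factor, averaged 52196 normalised counts with PMA and 1062 with DMSO, a fold of 49.1. In the authors' deposited table EGR1 has a shrunken log2 change of 2.73 ± 0.116 (SE) with 4.14e-119 as adjusted p. EGR2, its paralogue, averaged 452 with PMA and 32.2 with DMSO, and its shrunken log2 change in the authors' deposited table is 0.99 ± 0.112 (adjusted p 8.69e-16). EGR2 was thus almost silent in DMSO cells, whereas EGR1 already had a level of its own there. The corepressors that EGR proteins recruit, NAB1 and NAB2, were not called, at 0.07 and 0.07 (unshrunken log2) in the authors' deposited table.

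Of the 12 tested AP-1 genes, which encode leucine zipper proteins that pair to bind DNA, 4 were called higher and 0 lower, and 10 had a positive change. Their median unshrunken log2 change was 0.31, against -0.004 over all genes tested. Beside this and the following lists stand all genes tested: 0.528% were called higher, 0.0908% lower, and 48.1% had a positive change. JUNB averaged 8326 normalised counts with PMA and 1262 with DMSO and JUN 3904 with PMA and 672 with DMSO. FOS averaged 1786 with PMA and 54.9 with DMSO. In the authors' deposited table FOS has an unshrunken log2 change of 5.02 and a shrunken one of 0.44 ± 0.0974, with an adjusted p of 0.00174. Shrinkage pulls an estimate towards 0 the more, the less certain it is, and FOS and NR4A1 (1.88 unshrunken, 0.47 shrunken in the authors' deposited table) were shrunk far more than EGR1 or JUNB. MAFF, a small MAF protein that lacks a transactivation domain, was called at 0.65 (unshrunken log2, adjusted p 6.45e-04) in the authors' deposited table. JUND (0.39, adjusted p 0.226) and ATF3 (0.66, adjusted p 0.697) were not called in the authors' deposited table. NR4A1, an orphan nuclear receptor induced by antigen receptor signals, was the 1 called gene of the 3 NR4A members, at 3163 with PMA and 858 with DMSO normalised counts (adjusted p 0.00497 in the authors' deposited table).

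The IER and CSRNP early genes were higher in sign in 8 of 8 tested, with 2 called higher, against 48.1% and 0.528% of all tested genes. IER2, a nuclear early response protein, averaged 24492 normalised counts with PMA and 3574 with DMSO, and IER3, which modulates survival signalling, 3935 with PMA and 689 with DMSO. Their shrunken log2 changes in the authors' deposited table are 2.06 ± 0.102 and 1.81 ± 0.105. SGK1, a kinase related to AKT, averaged 5032 with PMA and 961 with DMSO, and it was the 1 called member of 15 inducible kinases. PIM1 and SIK1, kinases of the same list, had unshrunken log2 changes of 0.02 (adjusted p 0.999997) and 0.57 (adjusted p 0.0636) in the authors' deposited table.

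**Figure D2:**
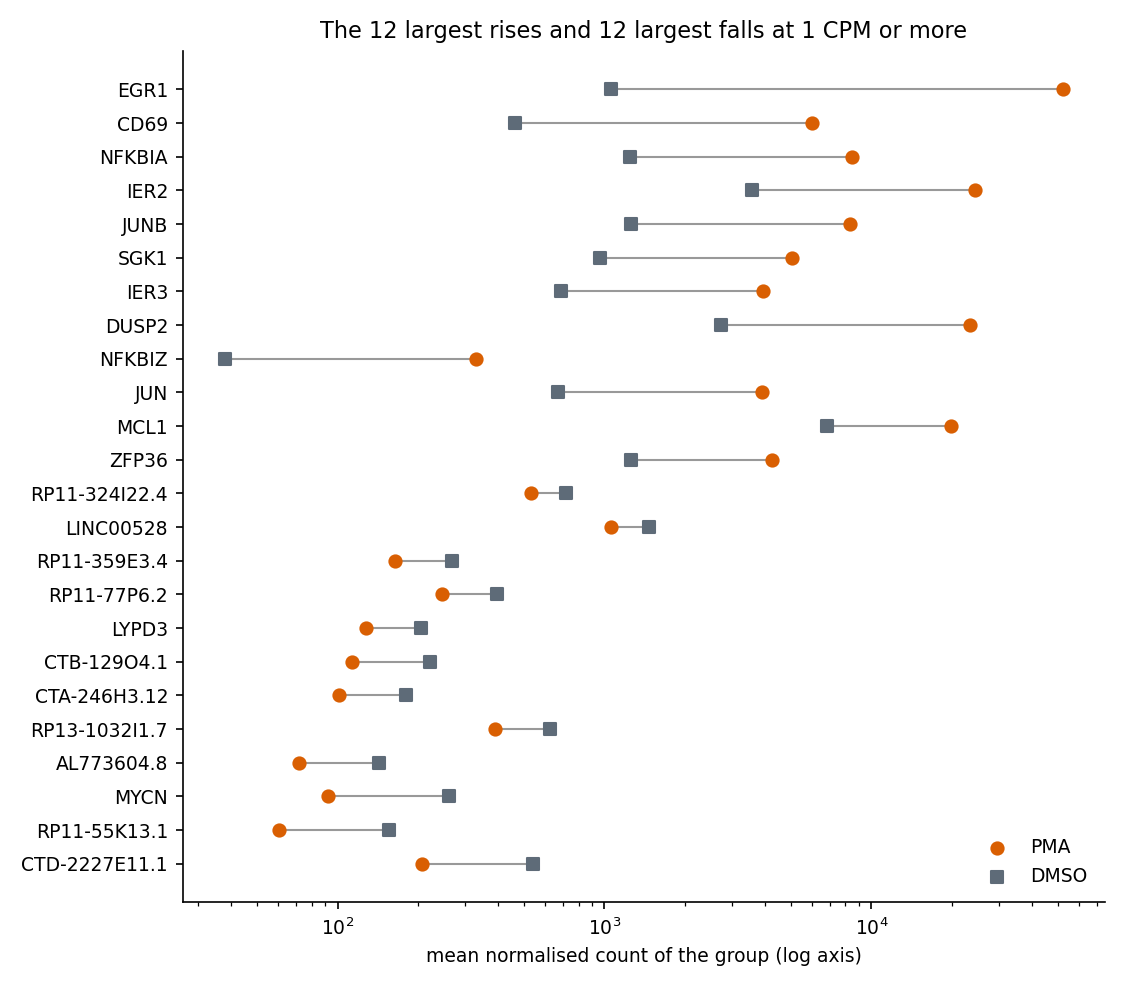
Mean normalised counts (log axis) with PMA (circles) and DMSO (squares) for the 12 largest rises and 12 largest falls by shrunken change among called genes of 1 CPM or more, 1 gene a row. The rises span EGR1 at 52196 with PMA and 1062 with DMSO to ZFP36 at 4241 and 1254; the falls are smaller, with CTD-2227E11.1 at 208 with PMA and 542 with DMSO.

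A few genes whose products dampen MAP kinase or G protein signalling were called higher. Of 10 tested MAP kinase phosphatases 3 were called higher and 0 lower, against 0.528% and 0.0908% of all tested genes. DUSP2, a nuclear phosphatase, averaged 23392 normalised counts with PMA and 2738 with DMSO, DUSP1 1389.8 with PMA and 579 with DMSO and DUSP5, which acts on ERK, 699 with PMA and 423 with DMSO. Their adjusted p-values in the authors' deposited table are 4.29e-48, 2.16e-20 and 3.50e-04. DUSP6, the cytoplasmic ERK phosphatase, and DUSP4 were not called, at 0.30 and -0.44 (unshrunken log2) in the authors' deposited table. In the Sprouty, SPRED and RGS list 2 of 12 were called: RGS16, which speeds the GTPase of G protein alpha subunits, at 1206 with PMA and 326 with DMSO, and SPRY2, an inhibitor of receptor tyrosine kinase signalling, at 1771 with PMA and 1345 with DMSO. SPRY2 rose by a log2 of 0.40 (unshrunken) in the authors' deposited table, a small change beside the 1.89 of RGS16.

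Regulators of mRNA stability formed a further group, with 4 of 18 tested genes called higher and 0 lower, against 0.528% and 0.0908% of all. ZFP36 (tristetraprolin), which binds AU-rich elements and recruits deadenylases, averaged 4241 normalised counts with PMA and 1254 with DMSO. ZC3H12A (Regnase-1), an endonuclease that cuts inflammatory mRNAs, averaged 1937 with PMA and 612 with DMSO. ZFP36L1, a paralogue of ZFP36, and BTG1, an antiproliferative partner of the deadenylase complex, rose less, by 0.48 and 0.38 (unshrunken log2, adjusted p 5.07e-05 for both) in the authors' deposited table. The 8 listed subunits of the CCR4-NOT deadenylase itself (CNOT1, CNOT2, CNOT3, CNOT4, CNOT6, CNOT6L, CNOT7 and CNOT8) lay between -0.05 and 0.11 in the authors' deposited table and were not called.

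In the NF-kB list 4 of 23 tested genes were called higher and 0 lower, against 0.528% and 0.0908% of all tested genes. A positive change was found in 16, against 48.1% of all, and the median unshrunken log2 change of the list was 0.10. Each of the 4 called genes acts on the pathway or on survival downstream of it. NFKBIA (ENSG00000100906, chromosome 14, 35870717 to 35873955), the inhibitor IkB alpha, averaged 8499 normalised counts with PMA and 1243 with DMSO, and its shrunken log2 change in the authors' deposited table is 2.22 ± 0.0942 (adjusted p 3.00e-118). NFKBIZ, a nuclear IkB protein, averaged 329 with PMA and 37.7 with DMSO, TNFAIP3 (A20), a ubiquitin editing enzyme, 4818 with PMA and 1953 with DMSO, and BIRC3 (cIAP2), a ubiquitin ligase of the pathway, 6024 with PMA and 2411 with DMSO. The subunits of the factor were not called: in the authors' deposited table RELA had an unshrunken log2 change of -0.00, NFKB1 of 0.05, REL of 0.29, NFKB2 of 0.38 and RELB of 0.58. Outside the list, MAP3K14 (NIK), the kinase of the noncanonical branch, was called at 665 with PMA and 401 with DMSO, TIFA, an adaptor of TRAF6, at 2789 with PMA and 2205 with DMSO, and TRAF4 at 6720.5 with PMA and 4868 with DMSO. The table's MIR146A gene, a 19159 bp noncoding gene, averaged 174 with PMA and 40.2 with DMSO (adjusted p 1.77e-06 in the authors' deposited table); the mature miRNA was not measured.

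At the cell surface, CD69, a lectin receptor that keeps activated lymphocytes in tissue, averaged 6010.0 normalised counts with PMA and 460.2 with DMSO, with a shrunken log2 change of 2.32 ± 0.111 in the authors' deposited table. CD83, an immunoglobulin family glycoprotein, averaged 5094 with PMA and 1751 with DMSO. These were the 2 called genes of 10 tested activation markers. ICAM1 stood at 0.26 (unshrunken log2, adjusted p 0.223) and the transferrin receptor TFRC at 0.03 in the authors' deposited table, and neither was called. Of the cytokine list 7 of 22 genes were tested and 0 called, while an unadjusted p under 0.05 was reached by 2 genes, both higher; LTB, lymphotoxin beta, had the smallest p, at 1400.2 with PMA and 1045 with DMSO (adjusted p 0.715 in the authors' deposited table). OSM, a cytokine of the interleukin-6 family not on the list, was called, at 148 with PMA and 64.97 with DMSO (adjusted p 0.00218 in the authors' deposited table). Receptors were also among the called genes. GPR3, a receptor that activates adenylate cyclase without a ligand, averaged 528 with PMA and 292 with DMSO, and GPR84, a receptor for medium-chain fatty acids, 207 with PMA and 73.7 with DMSO.

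The lists of phorbol ester receptors, the RAS and ERK cascade, proximal T cell receptor signalling and SRF with its cytoskeletal targets had no called gene. With 0.619% of all tested genes called, lists of this size would hold few or none. Of 21 phorbol ester receptor and protein kinase C genes 0 were called in either direction, also at an unadjusted p under 0.05, and 7 had a positive change; the unshrunken log2 changes of PRKCA, PRKCB, PRKCD, PRKCE, PRKCH and PRKCQ lay between -0.07 and 0.06 in the authors' deposited table. Of 25 RAS and ERK cascade genes 0 were called, also at an unadjusted p under 0.05. Of 26 proximal T cell receptor genes 0 were called, and 2 had an unadjusted p under 0.05, 1 in each direction. LAT, the membrane adaptor, had the smallest p among them, at 64.3 with PMA and 112 with DMSO (adjusted p 0.287 in the authors' deposited table). The 17 tested SRF cofactor and cytoskeletal genes had 0 calls, also at an unadjusted p under 0.05, and 6 had a positive change.

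**Figure D3:**
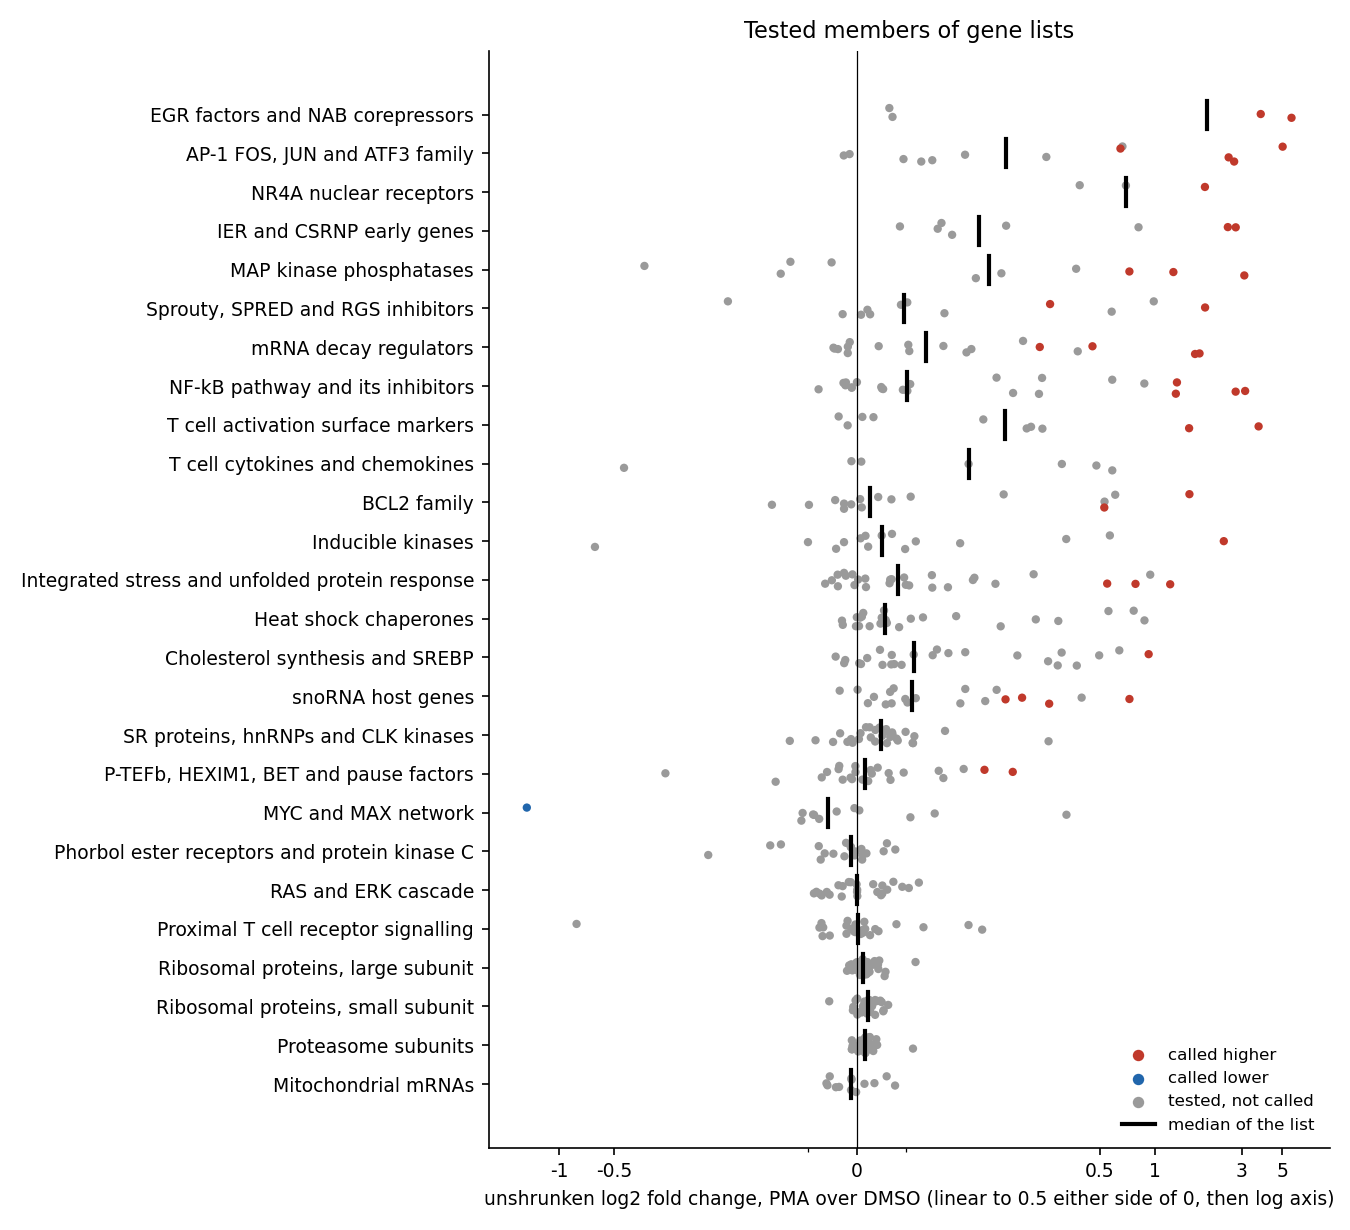
Unshrunken log2 fold change of PMA over DMSO for the tested members of 26 gene lists (1 point a gene, 1 list a row; red, called higher; blue, called lower; black bar, median of the list). The axis is linear to 0.5 on either side of 0 and logarithmic beyond. Points of the early gene and inhibitor lists reach 5.62, while the members of the ribosomal, proteasome and ERK lists crowd around 0.

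Of the BCL2 family 2 genes were called higher among 16 tested, against 0.528% of all tested genes. MCL1, a short-lived survival protein, averaged 19950.5 normalised counts with PMA and 6826 with DMSO, and its shrunken log2 change of 1.42 ± 0.0629 in the authors' deposited table had the third smallest p of all genes. PMAIP1 (NOXA), which binds and antagonises MCL1, averaged 4045 with PMA and 2806 with DMSO (adjusted p 0.0458 in the authors' deposited table). BCL2 stood at -0.10, BCL2L1 at -0.03 and BCL2L11 at -0.03 (unshrunken log2) in the authors' deposited table, and none of these 3 was called.

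Stress genes gave a mixed picture. In the list of the integrated stress and unfolded protein response 3 of 28 tested genes were called higher and 0 lower, and 20 had a positive change. Over all tested genes these shares were 0.528%, 0.0908% and 48.1%. PPP1R15A (GADD34), which brings a phosphatase to eIF2 alpha, averaged 2908 normalised counts with PMA and 1254 with DMSO, DDIT3 (CHOP), a stress transcription factor, 1945 with PMA and 1131 with DMSO, and DNAJB9, a chaperone of the endoplasmic reticulum, 1743 with PMA and 1192 with DMSO. VIMP, a selenoprotein of endoplasmic reticulum degradation outside the list, rose by 0.20 (unshrunken log2, adjusted p 0.0371) in the authors' deposited table, the smallest change among the 93. Of 24 tested heat shock genes 0 were called, 3 had an unadjusted p under 0.05, all higher, and 20 had a positive change. DNAJB1, a cofactor of HSP70, had the smallest p, at 15249 with PMA and 8973 with DMSO (adjusted p 0.176 in the authors' deposited table). Of 19 tested NRF2 and antioxidant genes 0 were called and 1 was higher with an unadjusted p under 0.05, and of 18 damage response and p53 genes 0 were called and 2 were higher by that measure.

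Several called genes act in transcription and RNA processing. HEXIM1, which holds the elongation kinase P-TEFb inactive in the 7SK particle, averaged 11996 normalised counts with PMA and 9606 with DMSO, and BRD2, a bromodomain reader of acetylated histones, 22547 with PMA and 18799 with DMSO. They were the 2 called members of 24 tested elongation genes, against 0.528% of all tested genes called higher. CCNL1, a cyclin tied to splicing, averaged 7476 with PMA and 5423 with DMSO, PCF11, a cleavage and termination factor, 6699 with PMA and 5198 with DMSO, and PPP1R10 (PNUTS), a phosphatase regulator in termination, 8845 with PMA and 6079.5 with DMSO. RBM15, of the m6A methyltransferase complex, averaged 3419 with PMA and 2749 with DMSO, and SDE2, of the spliceosome and replication stress response, 3789 with PMA and 3094 with DMSO. The unshrunken log2 changes of these 7 genes in the authors' deposited table lie between 0.26 and 0.54, far under those of the early factors, and their adjusted p-values between 1.63e-07 and 0.0343.

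Other called genes with small changes had diverse roles. FAM83D, a mitotic spindle protein, averaged 2945 normalised counts with PMA and 2029.5 with DMSO (adjusted p 1.07e-11 in the authors' deposited table), and HJURP, the chaperone of the centromeric histone CENP-A, 6857 with PMA and 5774 with DMSO (adjusted p 0.00268 in the authors' deposited table). SAT1, which acetylates polyamines, averaged 1684 with PMA and 1109 with DMSO. SLC30A1, a zinc exporter, averaged 2964 with PMA and 2242 with DMSO, SLC2A3, a glucose transporter, 1200.3 with PMA and 798 with DMSO, and MFSD2A, a lysophospholipid transporter, 2395 with PMA and 1869 with DMSO. The small GTPases RND1 and RHOB averaged 505 with PMA and 306 with DMSO and 133 with PMA and 70.2 with DMSO. SIRT1, a deacetylase, rose by 0.26, AKIRIN2, a nuclear import factor of proteasomes, by 0.28, and YRDC, an enzyme of tRNA modification, by 0.33 (unshrunken log2) in the authors' deposited table.

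Genes for small nucleolar RNAs, which guide the modification of ribosomal RNA and are mostly cut from the introns of host genes, were mostly higher in sign with PMA. Of 78 tested snoRNA genes 7 were called higher and 0 lower, against 0.528% and 0.0908% of all genes, and of 25 with an unadjusted p under 0.05 all were higher. At 1 CPM or more 20 of 21 had a positive change, with a median unshrunken log2 change of 0.58, against -0.000364 over all tested genes of that level. That level is a mean over the PMA, dieldrin and DMSO libraries, so a gene can reach it by rising. SNORA73B averaged 976 normalised counts with PMA and 432 with DMSO (adjusted p 1.85e-17 in the authors' deposited table), SNORA33 595 with PMA and 310.3 with DMSO (adjusted p 2.50e-09 in the authors' deposited table) and SNORD51 131 with PMA and 50.1 with DMSO (adjusted p 9.68e-05 in the authors' deposited table).

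The snoRNA genes and the genes that contain them could be set side by side in 70 cases, 19 of them with a snoRNA gene of 1 CPM or more. In all 19 the change of the snoRNA gene was above that of the containing gene, and both were positive. The median unshrunken log2 change was 0.61 for the 19 snoRNA genes and 0.05 for the 17 different genes that contain them, counted once per snoRNA. SNORD51 rose by 1.38 and its host EEF1B2, an elongation factor, stood at 0.07; SNORA33 and SNORD101 rose by 0.94 and 1.07 inside RPS12, at 0.05; SNORD14A rose by 0.65 inside RPS13, at 0.01; SNORD14E rose by 1.98 inside HSPA8, at 0.30 (unshrunken log2 in the authors' deposited table). None of these 4 hosts was called. SNORA73B (1.18) lies in SNHG3 (0.73), SNORD99 (0.58) in SNHG12 (0.40) and SNORD78 (1.19) in GAS5 (0.34), and these hosts were called too in the authors' deposited table. SNORD78 has no matched type in GENCODE and is not among the 19. Below 1 CPM the direction was less uniform: over all 70, 54 snoRNA genes were above their host and 55 above 0. The counting rule for reads that overlap both is not given in the sources used here. Poly(A) enrichment keeps few mature snoRNAs, and whether such reads come from a snoRNA, an unspliced host or another transcript was not tested.

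**Figure D4:**
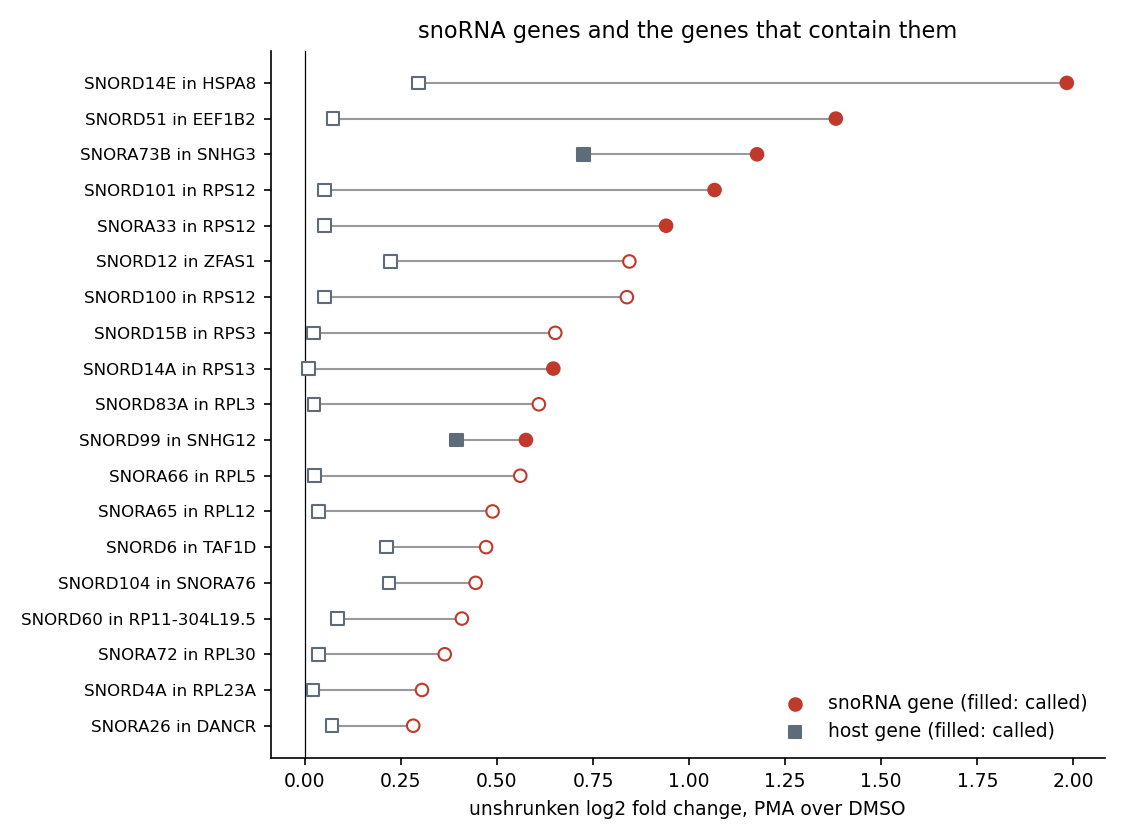
Unshrunken log2 fold change of PMA over DMSO for 19 snoRNA genes of 1 CPM or more (circles) and for the genes that contain them (squares), 1 snoRNA a row; filled marks are called. Every circle lies right of its square, from SNORD14E at 1.98 (host 0.30) down to SNORA26 at 0.28 (host 0.07).

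Long noncoding hosts of snoRNAs were mostly higher in sign with PMA. Of 20 tested host genes 4 were called higher and 0 lower, 19 had a positive change, and the median unshrunken log2 change was 0.11. Over all tested genes 0.528% were called higher, 0.0908% lower, and 48.1% had a positive change. SNHG3 averaged 26915 normalised counts with PMA and 16281 with DMSO, a change of only 1.65-fold, yet with 7.52e-63 its adjusted p is among the 10 smallest of the authors' deposited table. GAS5 averaged 26002 with PMA and 20547 with DMSO, SNHG1 22609.9 with PMA and 18294 with DMSO and SNHG12 6979.6 with PMA and 5306 with DMSO. The members that were not called include SNHG8 at 10235 with PMA and 8387 with DMSO (adjusted p 0.142 in the authors' deposited table) and ZFAS1 with an unshrunken log2 change of 0.22 in the authors' deposited table. SNHG11 alone had a negative one, -0.04 in the authors' deposited table. MIR17HG, the host of the miR-17-92 cluster, was called at 2677 with PMA and 1567 with DMSO, and the table's MIR142 gene, a 1625 bp noncoding gene antisense to BZRAP1-AS1, at 17904 with PMA and 9416 with DMSO.

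Of the 16 genes called lower, 12 are noncoding, 8 typed as antisense and 4 as lincRNA. The tested genes included 1315 antisense RNAs, of which 6 were called higher, and 895 lincRNAs, of which 3 were called higher. Over all tested genes 0.0908% were called lower and 0.528% higher. CTD-2227E11.1 (ENSG00000270933, chromosome 7, 25988277 to 25989023), a lincRNA, averaged 208 normalised counts with PMA and 542 with DMSO, with a shrunken log2 change of -0.76 ± 0.114 in the authors' deposited table (adjusted p 1.93e-08). The lincRNA RP11-1277A3.3 averaged 8.997 with PMA and 55.4 with DMSO, LINC00528 1057 with PMA and 1471 with DMSO and the antisense RNA RP11-55K13.1 60.2 with PMA and 156 with DMSO. The rest, among them CTB-129O4.1, AL773604.8, RP11-77P6.2, RP11-285J16.1, RP11-324I22.4, RP13-1032I1.7 and CTA-246H3.12, had unshrunken log2 changes between -0.997 and -0.43 in the authors' deposited table. Of these 12, 3 overlap an expressed gene on the opposite strand (CCNY, LRRFIP2 and HGS), and those 3 partners were not called. With dieldrin against the same DMSO libraries, all 12 noncoding genes had a negative change too. CTD-2227E11.1 has unshrunken log2 changes of -1.38 with PMA and -1.38 with dieldrin in the authors' deposited table. LINC00528 has -0.48 and -0.81, and AL773604.8 -0.997 and -0.54. The shared DMSO libraries tie both sets of values.

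The 4 protein-coding genes called lower were MYCN, SLA, LYPD3 and ZNF174. MYCN, a MYC family transcription factor, averaged 92.1 normalised counts with PMA and 261 with DMSO (adjusted p 0.00136 in the authors' deposited table). It was the 1 called gene of 12 tested in the MYC and MAX network, and MYC itself had an unshrunken log2 change of -0.04 in the authors' deposited table. SLA, the Src-like adaptor that dampens T cell receptor signalling, averaged 9100.2 with PMA and 10812 with DMSO (adjusted p 0.00553 in the authors' deposited table), at 130.0 CPM the most abundant of the lower genes. LYPD3, a surface protein of the Ly6 family, averaged 128 with PMA and 205 with DMSO, and ZNF174, a zinc finger protein, 1895 with PMA and 2222 with DMSO. ID1, an inhibitor of basic helix-loop-helix factors, had a larger change than SLA without passing the test, at 1773 with PMA and 3267 with DMSO (adjusted p 0.406 in the authors' deposited table).

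By gene type, long noncoding RNAs and pseudogenes had positive changes less often than protein-coding genes, but the types also differ in level. The median level of tested genes was 25.1 CPM for protein-coding genes, 0.603 for antisense RNAs, 0.561 for lincRNAs and 0.407 for processed pseudogenes. Over all genes the share with a positive change was 42.1% in the sixth of 20 bins of level and 62.8% in the highest. The types were not compared at matched level. At 1 CPM or more 52.1% of 11010 tested protein-coding genes had a positive change, 36.4% of 464 antisense RNAs, 34.8% of 328 lincRNAs and 20.7% of 261 processed pseudogenes. The median unshrunken log2 changes were 0.003 for protein-coding genes, -0.06 for both antisense RNAs and lincRNAs, and -0.12 for processed pseudogenes. Processed pseudogenes share sequence with their parent genes, so their counts depend on how the authors' counting split such reads. With dieldrin against the same DMSO libraries the medians over all tested genes of these types were -0.004, 0.01, -0.03 and 0.17, where PMA gave 0.003, -0.05, -0.08 and -0.15; both sets of values rest on the same DMSO libraries.

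Several lists of abundant genes had mostly positive changes, none of them called. Of 75 tested ribosomal protein genes 62 had a positive change, with a median unshrunken log2 change of 0.0153; 0 were called and 0 had an unadjusted p under 0.05. The proteasome subunits were positive in 26 of 31 (median 0.0170), the TRiC and prefoldin subunits in 12 of 14 (median 0.0218), the RNA exosome genes in 20 of 24 (median 0.0411) and the ribosome biogenesis genes in 26 of 34 (median 0.0375), against 49.8% of all tested genes at 1 CPM or more. The share moved with level over all genes too: in 20 bins of level it was 62.8% in the highest, where the ribosomal, proteasome and TRiC lists have their median levels, 52.8% and 54.2% in the next ones down, and 42.1% in the sixth. No gene of these 4 lists was called or had an unadjusted p under 0.05. The nuclear-encoded respiratory chain was positive in 20 of 35 and the mitochondrial mRNAs in 4 of 13. Genes of such lists vary together, so a count of signs describes these libraries and no more.

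The cholesterol list had larger changes. Of 25 tested genes 22 had a positive change, with a median unshrunken log2 change of 0.12. In this list 1 gene was called higher and 3 had an unadjusted p under 0.05, all higher. Over all tested genes 48.1% had a positive change, 0.528% were called higher and 2.25% were higher at that unadjusted p. INSIG1, which retains SREBP in the endoplasmic reticulum, averaged 22651 normalised counts with PMA and 14555 with DMSO (adjusted p 0.648 in the authors' deposited table). IDI1, an isomerase of the pathway, averaged 19203 with PMA and 14342 with DMSO (adjusted p 0.999997 in the authors' deposited table). Of 30 tested SR protein, hnRNP and CLK genes 23 had a positive change and 0 were called; CLK1, a kinase of SR proteins, had the smallest p, at 4379 with PMA and 3332 with DMSO (adjusted p 0.0891 in the authors' deposited table).

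The authors' statistic was narrower than a standard normal one, most of all for abundant genes. Over all 17612 genes its robust SD (from the interquartile range) was 0.690, where unchanged genes with well calibrated errors would give 1. In 20 bins of level it lay between 0.742 and 0.923 in the lowest 7 bins, with no steady trend, and was 0.393 in the highest. With the statistic divided by its robust SD within each bin, 288 genes were higher, 1.64%, and 95 lower, 0.539%, and all 109 genes of the authors' calls were among them. This setting assumes that most genes of a bin did not change, and it takes the spread over genes as the error.

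**Figure D5:**
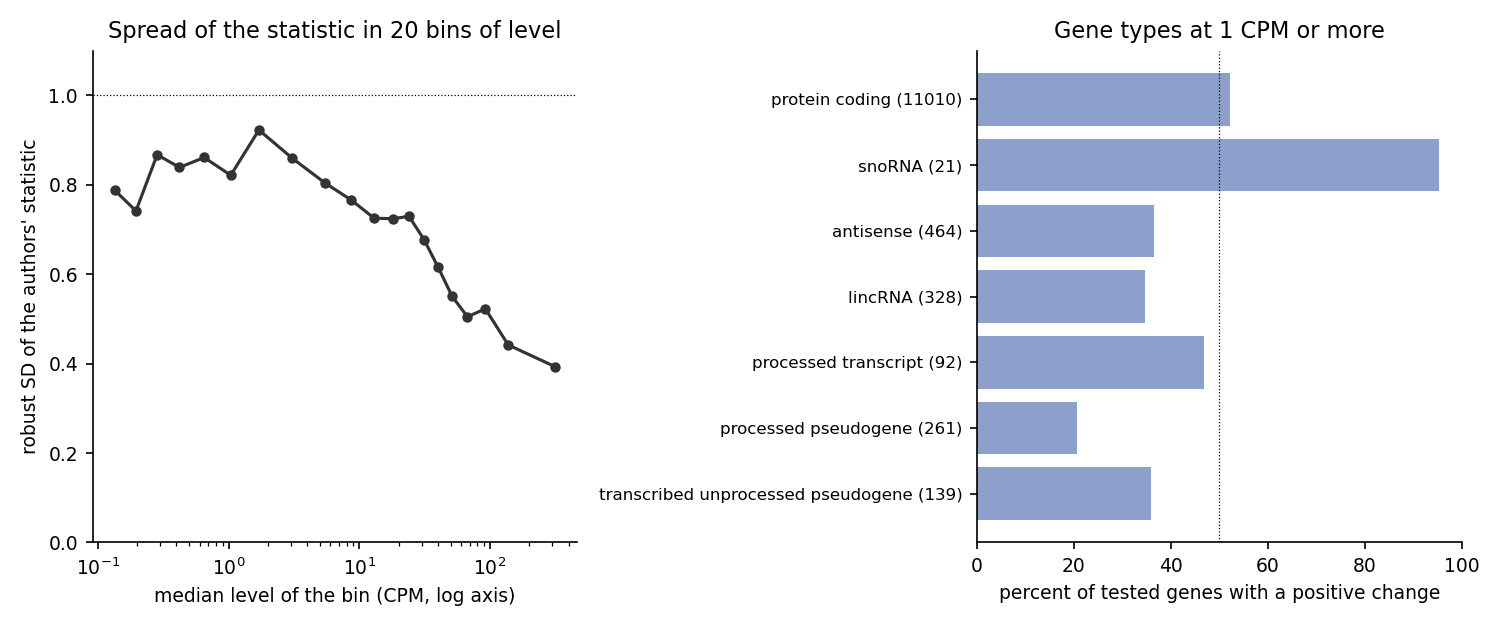
Left, robust SD of the authors' Wald statistic in 20 bins of mean level (CPM, log axis; dotted line, 1). It is 0.788 in the lowest and 0.393 in the highest bin. Right, percent of tested genes of 1 CPM or more with a positive change, by gene type with the number of genes in brackets (dotted line, 50%). The bars run from 20.7% of processed pseudogenes to 95.2% of snoRNA genes.

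The 10 genes of smallest p added by this rescaling were abundant, and their unshrunken folds in the authors' deposited table ran between 1.11 for GLUL and 1.70 for DNAJB1. They were EIF1, a factor of start codon selection, at 53514 normalised counts with PMA and 47060.4 with DMSO (rescaled adjusted p 1.45e-14), GLUL, glutamine synthetase, at 20562 with PMA and 18476 with DMSO (1.46e-14), and EIF4A2, a translation helicase, at 36002 with PMA and 29105 with DMSO (5.60e-14). SRSF2, a splicing factor, averaged 55070.2 with PMA and 48573 with DMSO, ZFAND5, a zinc finger protein tied to the proteasome, 11918 with PMA and 10269.7 with DMSO, and MAT2A, which makes the methyl donor S-adenosylmethionine, 48710.1 with PMA and 41324 with DMSO. DNAJB1, JUND, SNHG8 and the noncoding RNA NEAT1 complete the 10, all of them higher with PMA. In the authors' own test the adjusted p-values of these 10 genes lie between 0.0590 and 0.357 in the authors' deposited table. By list, the rescaled calls were 5 higher and 0 lower of 25 cholesterol genes, 8 and 0 of 20 snoRNA hosts, 7 and 0 of 28 stress response genes, 7 and 0 of 23 NF-kB genes, 7 and 0 of 18 mRNA decay genes, 5 and 0 of 30 splicing genes and 12 and 0 of 78 snoRNA genes, against 1.64% and 0.539% of all genes. Among 21 leukaemia transcription factor and RAG genes they were 1 higher and 4 lower, the lower ones being ID1, ID3, TAL1 and TCF7 with unshrunken log2 changes of -0.88, -0.41, -0.09 and -0.08 in the authors' deposited table. Of 75 ribosomal protein, 31 proteasome and 24 exosome genes 0 were called in either direction under this setting as well.

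The called genes were short. The 93 higher genes had a median span of 5242 bp and the 16 lower genes of 2426.5 bp, against 20671 bp over all tested genes. The lower genes include 8 antisense RNAs and 4 lincRNAs, whereas most tested genes are protein-coding. No span over all genes of those 2 types is given, so type and direction cannot be told apart for the lower genes. Among protein-coding genes the 68 higher ones had a median span of 8784 bp, against 32038 bp over all 12646 tested. The 27 that rose 2-fold or more had 4494 bp and the 41 that rose less had 13707 bp. By the largest exon count of any transcript in GENCODE v29, 45.1% of 91 higher genes had 3 exons or fewer, against 26.9% of 16999 tested genes with a match. In the 1 ribosomal RNA-depleted DMSO library the authors listed 113689 sites of divergent transcription (median length 254 bp, hg19), a sign of active promoters and enhancers. Such a site lay within 500 bp of the start of 69.9% of the higher genes (Wilson 95% interval 59.9% to 78.3%) and 68.8% of the lower genes (44.4% to 85.8%). The share was 62.7% over all tested genes and 72.0% over those of 1 CPM or more, so the called genes were near the background in DMSO cells.

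Some called genes lie beside or inside another one. There were 7 pairs of called genes within 10000 bp of each other. They include DUSP2 and ASTL, a metalloprotease gene 4730 bp away on the same strand, with unshrunken log2 changes of 3.09 and 1.55 in the authors' deposited table. They also include IER2 and CTC-250I14.6, an antisense gene within it, at 2.78 and 2.92 in the authors' deposited table. MIR616 lies inside DDIT3, at 1.90 and 0.78 in the authors' deposited table. Of the 93 higher genes 23, and of the 16 lower genes 3, overlap a gene of 1 CPM or more on the opposite strand. The same counts over all tested genes are not given. Whether these overlaps or the 7 pairs are frequent or rare therefore cannot be told. The labels describe stranded libraries, but the use of strand in counting is not given in the sources used here. Reads of such pairs may not have been told apart.

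Values with dieldrin, taken from a comparison with the same DMSO libraries, are given beside those with PMA for genes of this response; the shared DMSO libraries tie both sets, and their difference was not tested. Among the genes of large rise, EGR1 has unshrunken log2 changes of 5.62 with PMA and 5.29 with dieldrin in the authors' deposited table, CD69 3.71 and 5.46, NFKBIA 2.77 and 2.58, IER2 2.78 and 2.91, JUNB 2.72 and 2.44, and MCL1 1.55 and 1.55. Other large rises lay further apart. FOS has 5.02 with PMA and 8.10 with dieldrin in the authors' deposited table, EGR2 3.81 and 6.43, and JUN 2.54 and 5.28. SGK1 was the higher with PMA, at 2.39 and 1.44 in the authors' deposited table. The genes that follow were picked because their values differ. SLA has unshrunken log2 changes of -0.25 with PMA and 0.24 with dieldrin in the authors' deposited table. GPR84 has 1.49 with PMA and -0.09 with dieldrin in the authors' deposited table, RND1 0.72 and -0.04, and FAM83D 0.54 and -0.12. ZC3H12A has 1.66 with PMA and 0.44 with dieldrin in the authors' deposited table, RGS16 1.89 and 0.69, and HEXIM1 0.32 and 0.04. NR4A1 has 1.88 with PMA and 5.05 with dieldrin in the authors' deposited table, DUSP1 1.26 and 2.72, and ZFP36L1 0.48 and 1.68. Over the 19 snoRNA genes of 1 CPM or more inside another gene the medians were 0.61 with PMA and 0.43 with dieldrin. These 19 were in part selected by their rise, since both treatments enter the mean level.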

How the data were processed

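Poly(A)-enriched, stranded, paired-end RNA sequencing libraries of Jurkat cells were compared, 3 with PMA against 3 with DMSO; per the labels' protocols a phenol-chloroform extraction gave the RNA and random hexamers primed the cDNA. STAR, edgeR and hg19 are named, without settings, in the submitters' processing notes, while per the file headers the columns are of the kind DESeq2 writes. The deposited table holds, per the file headers, a mean normalised count (a signal never below 0), log2 fold changes with and without shrinkage, a standard error and a Wald statistic (a score), a p-value and an adjusted p. Changes and p-values were taken as deposited, since no values per library were at hand, and the depth per library is therefore unknown. The mean was taken as that over the 9 poly(A) libraries, and group means were worked out from it and the unshrunken changes of PMA and dieldrin. P-values exist for 43328 genes and adjusted ones for 17612, with means of at least 9.44.

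Genes were named from the 16 lowered and 93 raised, the member of smallest p of each list, the 10 uncalled genes of smallest p after rescaling, and 10 control and protein kinase C genes; any other gene named was chosen after its values were seen, and some genes are not reported here. The 51 gene lists hold 999 symbols, of which 985 were found. The members and lists were chosen with earlier results of these data known. GENCODE v29 supplied gene types by matching IDs (41842 of 44416); its coordinates were not used. Intervals cover counting error only. The tools were numpy 2.4.6, matplotlib 3.10.9, scipy 1.17.1 and pandas 2.3.3 under Python 3.11.15. The rescaling was tested on simulated statistics whose spread was set from these data. The adjustment was checked against the authors' own adjusted p-values.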

Additional observations from a re-analysis of the deposited data

Results flagged for a closer look

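Of 1088 genes without a p-value in the authors' deposited table, 14 reached 1 CPM, and 4 of these were 2-fold or more higher with PMA while none was 2-fold or more lower. They are early genes that no comparison above counts, and no test was made of them. EGR4, a zinc finger factor of the EGR family, averaged 448 normalised counts with PMA and 16.01 with DMSO, a fold of 27.99 unshrunken in the authors' deposited table. EGR3 averaged 550.3 with PMA and 166 with DMSO, a fold of 3.32 in the authors' deposited table. TNF, the cytokine, averaged 23.9 with PMA and 7.31 with DMSO, a fold of 3.26 in the authors' deposited table. Both TNF means lie under the 83.7 counts of 1 CPM. TNF reached that level only through the dieldrin libraries, with an unshrunken fold of 86.7 for dieldrin over DMSO. FOSB, a partner of JUN proteins, averaged 297 with PMA and 113 with DMSO, a fold of 2.62 in the authors' deposited table. Shrunken, these log2 changes are 0.90, 0.34, 0.51 and 0.21 in the authors' deposited table. Why the p-values are missing is not given in the sources used here, and whether 1 library decides any of these folds cannot be told.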

How the results depend on the processing

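The authors' calls were 93 higher and 16 lower genes, 85.3% of them higher. At an adjusted p under 0.01 there were 65 and 8, and under 0.1 there were 103 and 22. Adjusted over every gene with a p-value there were 76 and 11. Adjusted over genes of 1 CPM or more there were 88 and 15, and at 2-fold or more 40 and 4. With the statistic rescaled there were 321 higher and 176 lower, so that 64.6% were higher. With the statistic rescaled by level there were 288 and 95, 75.2% higher. All 109 calls were shared with both rescaled settings, and 87 of 87 with the adjustment over every gene. That adjustment ended the call of 22 named genes, among them HEXIM1, PMAIP1, PCF11, SIRT1, RBM15, SNHG12 and ZNF174, through the larger number of genes adjusted. Over 50 lists, 0 medians changed sign with shrunken changes or with centring, and 0 of 49 at 1 CPM or more. They moved by over 1.5 times in 16 of 50 lists with shrunken changes, in 1 with centring and in 5 of 49 at 1 CPM or more; shrunken, the median was 0.52 for the EGR list and 0.06 for the cholesterol list, against 1.94 and 0.12. At 1 CPM or more the median span was 6043 bp for the higher and 2925 bp for the lower genes, against 27855 bp over all tested genes, and 41.7% of the higher genes had 3 exons or fewer, against 15.9%; a DMSO site lay at 73.3% of higher and 71.4% of lower starts, against 72.0%.

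No paired analysis was possible because the deposited table holds no values per library; leaving out a replicate, a replicate block and refitting with edgeR or DESeq2 were not run for the same reason. Whether 1 library decides a value therefore cannot be told, and the labelled dose of PMA could not be checked. Low levels limit single genes: the robust SD of the unshrunken log2 change over genes was 0.60 in the lowest of 20 bins of level and 0.03 in the highest.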
